A study of Mus musculus with 6 samples.

Results

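The 8 genes described here are expressed by B cells and by the antibody-secreting plasma cells that B cells become: Jchain, Mzb1, Cd22, Cd37, Cd79a, Cd79b, Ms4a1 and Pou2af1. They were chosen by name, and all 8 were found among the 14492 genes of the deposited liver table. The 6 liver samples came from male C57BL/6 mice, 8 weeks old when they were injected through the tail vein and given a high-fat diet for the next 2 weeks. In 3 mice the injection was an adenovirus vector made to overexpress Chrna4, a subunit of the nicotinic acetylcholine receptor. The other 3 mice are labelled vehicle, and the labels do not say whether their vehicle held a virus without Chrna4. Polyadenylated RNA was read as 150 bp pairs.

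B cells carry an antibody as their antigen receptor, and the proteins of Cd79a and Cd79b pass its signal into the cell. Cd22 damps that signal, Cd37 and Ms4a1 are membrane proteins of the B cell surface, and Pou2af1 is a nuclear coactivator that helps octamer-binding factors switch on antibody genes. After activation some B cells turn into plasma cells, whose products Mzb1 and Jchain assemble antibodies: Mzb1 works as a chaperone in the endoplasmic reticulum, and the J chain links IgA and IgM into polymers that the polymeric immunoglobulin receptor can carry into bile. A liver holds few of these cells beside its hepatocytes.

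Levels are the deposited values, counts of reads for each 1000000 of a library total that the authors had scaled (CPM). The whole reads behind them numbered 14959338 to 17023536 in the Chrna4-labelled libraries and 15191611 to 22440334 in the vehicle libraries. Mouse Chrna4 itself had 3.70, 2.17 and 3.82 CPM in the Chrna4-labelled livers, against 1.70, 4.99 and 3.38 CPM in vehicle livers, and the groups overlapped (limma, log2 fold change 0.0069, adjusted p = 0.993). The labels do not say whether reads of the vector's Chrna4 could be assigned to the mouse gene. Hepatocyte markers were abundant in every library, with 7 listed genes summing to 74094 to 81537 CPM in Chrna4-labelled and 86295 to 92551 CPM in vehicle livers. Of the 13 antibody constant-region genes of the reference annotation, GENCODE M21, 0 are in the table, and of its 218 antibody variable segments also 0, so antibody transcripts were not analysed here. Nothing in the labels says that libraries share a litter, day or batch.

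For Jchain and Cd22, the members with the largest fold changes that have a promoter in the RefSeq table (GRCm38.p6), that promoter is shown, since Pou2af1 acts through an octamer, ATGCAAAT, in the promoters it binds. Each runs 5′ to 3′ on the minus strand from 250 bases before the RefSeq start to 50 after it, chr5:88527848-88528147 for Jchain and chr7:30878979-30879278 for Cd22. The Cd22 window lies inside the GENCODE M21 span of that gene, 30865402 to 30880342. It is therefore not the sequence before the GENCODE start of Cd22.
Jchain: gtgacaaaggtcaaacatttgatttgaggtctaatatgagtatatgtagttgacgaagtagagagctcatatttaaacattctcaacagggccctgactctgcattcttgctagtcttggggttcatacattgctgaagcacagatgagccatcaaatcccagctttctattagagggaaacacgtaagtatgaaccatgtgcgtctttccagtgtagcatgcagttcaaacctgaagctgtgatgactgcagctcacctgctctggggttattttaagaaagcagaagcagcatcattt
Cd22: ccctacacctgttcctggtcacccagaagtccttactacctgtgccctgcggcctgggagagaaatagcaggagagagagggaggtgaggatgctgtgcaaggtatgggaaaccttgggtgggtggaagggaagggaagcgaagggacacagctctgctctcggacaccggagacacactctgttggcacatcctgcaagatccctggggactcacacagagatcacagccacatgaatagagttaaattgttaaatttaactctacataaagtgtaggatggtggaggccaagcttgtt
Searched on both strands, the octamer was in 0 of the 5 member promoters of the RefSeq table (Jchain, Cd22, Cd37, Cd79a and Pou2af1), so no base is in capitals, and in 1.74% of all 32851 promoters. No match says only that these letters are not in this window.

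The genes were higher in Chrna4-labelled livers, and the plasma cell gene Jchain by most. By mean level all 8 were higher, and for 7 of the 8, all except Cd79a, the 3 Chrna4-labelled values lay above the 3 vehicle values, as they did for 22.2% of all genes in the table. The main test, limma on log2(CPM + 1), took genes with a mean of at least 1 CPM over the 6 libraries, which 6 of the 8 had. Of these, 4 rose (Jchain, Mzb1, Cd22 and Cd37) and 0 fell, beside 14.2% of the 12099 tested genes called higher and 10.3% called lower. Mzb1 and Cd79b passed the minimum through the Chrna4-labelled group, since their vehicle means were 0.646 and 0.961 CPM. With no minimum, so that all 8 were tested, 6 rose at an adjusted p under 0.05, Ms4a1 and Pou2af1 being the other two, beside 13.4% of 14492 genes. With a minimum of 0.5 CPM the count was also 6, beside 14.4% of genes. The authors' deposited table calls 7 of the 8 higher, all except Cd79a, beside 15.0% of genes. In bulk liver RNA, more B lineage cells and more RNA per cell cannot be told apart.

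**Figure D1:**
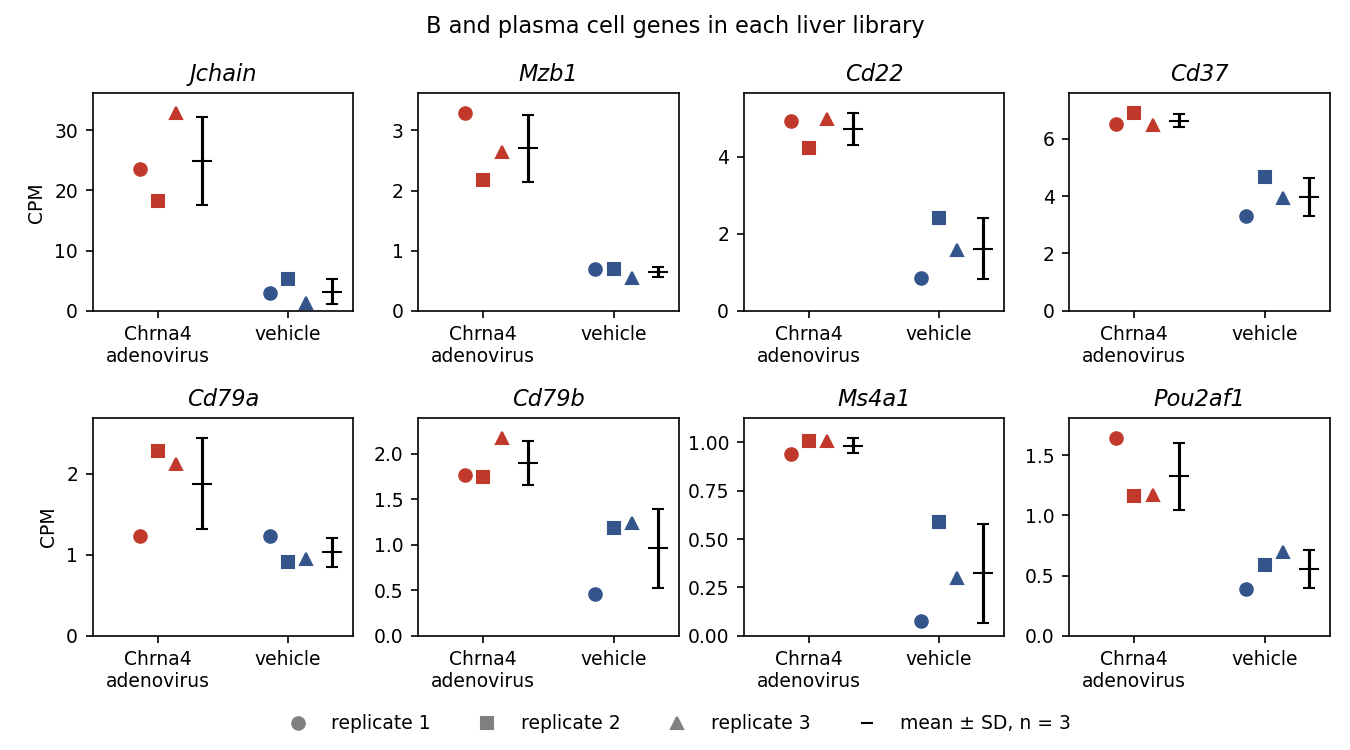
CPM of the 8 genes (vertical axes, linear, each from 0) in the 3 Chrna4-labelled livers (red, left) and the 3 vehicle livers (blue, right); marker shapes give the replicate and black bars the mean ± SD (n = 3). The groups lie apart for every gene except Cd79a, whose lowest Chrna4-labelled value of 1.23 CPM sits beside the highest vehicle value of 1.23 CPM.

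Jchain (ENSMUSG00000067149; minus strand of chromosome 5, 88519809 to 88527891 in GRCm38) encodes the joining chain of polymeric antibodies. It had 23.6, 18.3 and 32.8 CPM in the Chrna4-labelled livers, from 402, 346 and 619 reads, against 3.01, 5.36 and 1.29 CPM in vehicle livers, from 39, 100 and 26 reads. The lowest Chrna4-labelled liver was 3.42-fold above the highest vehicle liver. The mean was 24.9 ± 7.33 CPM in Chrna4-labelled and 3.22 ± 2.04 CPM in vehicle livers (SD, n = 3 each), and the log2 fold change was 2.70 (standard error 0.35, adjusted p = 0.00179 by limma). Jchain ranked 14 among the 12099 tested genes by that fold change. From lowest to highest liver it varied 1.79-fold among Chrna4-labelled and 4.15-fold among vehicle livers.

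Mzb1 (ENSMUSG00000024353, chromosome 18, 35647267 to 35649367), the chaperone of antibody assembly, had 3.29, 2.17 and 2.65 CPM in Chrna4-labelled livers, against 0.694, 0.697 and 0.546 CPM in vehicle livers. These values rest on 56, 41 and 50 reads in Chrna4-labelled livers and on 9, 13 and 11 reads in vehicle livers. The groups were far apart, and the vehicle livers were close to one another. Mzb1 rose by 1.16 on the log2(CPM + 1) scale (standard error 0.18, adjusted p = 0.00324 by limma). That scale understates the change of so low a gene: the ratio of group means was 4.18, and edgeR's quasi-likelihood test on the recovered reads gave a log2 fold change of 2.08.

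Cd22 (ENSMUSG00000030577, chromosome 7, 30865402 to 30880342), the inhibitory co-receptor, had 4.93, 4.23 and 4.98 CPM in Chrna4-labelled livers, against 0.849, 2.41 and 1.59 CPM in vehicle livers. The Chrna4-labelled livers were nearly level, and the vehicle livers were spread 2.84-fold, with replicate 1 lowest. The log2 fold change was 1.17 (standard error 0.23, adjusted p = 0.00823 by limma), and 0.94 without vehicle replicate 1, where the call held (adjusted p = 0.00433).

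Cd37 (ENSMUSG00000030798, chromosome 7, 45233632 to 45239115) encodes a tetraspanin of B cells that other leukocytes also make. It had 6.51, 6.88 and 6.46 CPM in Chrna4-labelled livers, against 3.32, 4.67 and 3.92 CPM in vehicle livers. The groups did not overlap, but the difference was the smallest of the 4 called ones, at 0.63 on the log2 scale (standard error 0.15, adjusted p = 0.0181 by limma). The call was lost without any 1 of the Chrna4-labelled replicates, with adjusted p-values of 0.0551, 0.0803 and 0.0615 by limma, while the fold change stayed between 0.60 and 0.64.

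The differences of both antigen receptor partners did not pass the test. Cd79a (ENSMUSG00000003379, chromosome 7, 24897381 to 24902197) had 1.23, 2.28 and 2.12 CPM in Chrna4-labelled livers, against 1.23, 0.912 and 0.943 CPM in vehicle livers. Chrna4-labelled replicate 1 was thus at the level of vehicle replicate 1, and the groups met there. Cd79b (ENSMUSG00000040592, chromosome 11, 106311341 to 106314762) had 1.76, 1.75 and 2.17 CPM in Chrna4-labelled livers, against 0.463, 1.18 and 1.24 CPM in vehicle livers, with no overlap. The log2 fold change was 0.49 for Cd79a (95% interval 0.03 to 0.94, adjusted p = 0.116 by limma) and 0.58 for Cd79b (0.10 to 1.06, adjusted p = 0.0780). The ratios of group means, 1.82 for Cd79a and 1.97 for Cd79b, were above that of the called Cd37, 1.67, since adding 1 to the CPM shrinks the change of low genes most. With plain library totals, which lifted the median of all genes by 0.31 on the log2 scale, both passed (adjusted p = 0.0256 and 0.0198 by limma), as did 37.5% of tested genes in that direction.

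Ms4a1 and Pou2af1 were the lowest members. Ms4a1 (ENSMUSG00000024673, chromosome 19, 11249675 to 11266241), which encodes CD20, had 16, 19 and 19 reads in Chrna4-labelled livers, against 1, 11 and 6 reads in vehicle livers. In CPM this was 0.939, 1.01 and 1.01 in Chrna4-labelled livers and 0.0772, 0.590 and 0.298 in vehicle livers; the single read of vehicle replicate 1 has an exact Poisson 95% interval of 0.0253 to 5.57 reads, which covers counting error only. Pou2af1 (ENSMUSG00000032053, chromosome 9, 51213708 to 51240080) had 1.64, 1.16 and 1.17 CPM in Chrna4-labelled livers, against 0.386, 0.590 and 0.695 CPM in vehicle livers, from 5 to 28 reads a library. The groups of both genes did not overlap. With no minimum level, the log2 fold change was 0.60 for Ms4a1 (adjusted p = 0.0241 by limma) and 0.58 for Pou2af1 (adjusted p = 0.0218). By edgeR's quasi-likelihood test on the recovered reads of all genes, Pou2af1 passed (adjusted p = 0.0453) and Ms4a1 did not (adjusted p = 0.0681). Its log2 fold changes, without the added 1 CPM, were 1.20 for Pou2af1 and 1.51 for Ms4a1, and the ratios of group means were 2.38 and 3.06. That test called 5 of the 8 members higher, beside 12.6% of genes.

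**Figure D2:**
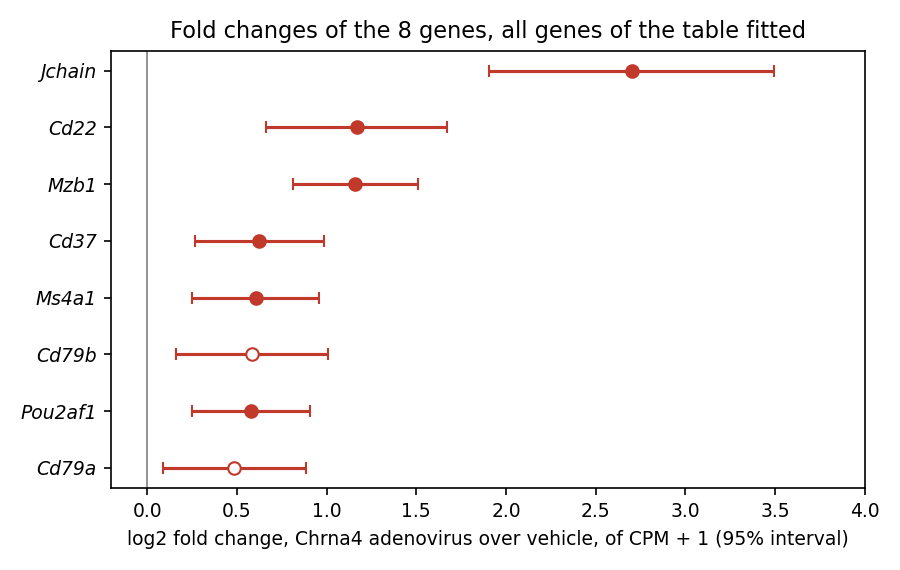
Log2 fold change of CPM + 1, Chrna4-labelled over vehicle (horizontal axis), with its 95% interval, for the 8 genes in the fit over all 14492 genes; filled points have an adjusted p under 0.05 by limma. Jchain stands at 2.70, Cd22 and Mzb1 at 1.17 and 1.16, and the other 5 between 0.49 and 0.63, with Cd79a and Cd79b open.

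Divided by the length of the principal transcript, to compare genes with each other, the order of the levels in Chrna4-labelled livers was led by Jchain, at 17.9 ± 5.26 CPM per kilobase (SD, n = 3). Cd37 followed at 5.40 ± 0.186 and Mzb1 at 2.99 ± 0.619. Cd79b (1.58 ± 0.202), Cd79a (1.29 ± 0.386) and Cd22 (1.19 ± 0.105) overlapped with their neighbours in that order. Pou2af1 (0.520 ± 0.108) and Ms4a1 (0.320 ± 0.0126) were lowest, each apart from the gene above. In vehicle livers Cd37 led, at 3.23 ± 0.550 CPM per kilobase, and its range overlapped that of Jchain, at 2.31 ± 1.47. Ranges of neighbours overlapped all along the vehicle order except between Cd79a (0.707 ± 0.122) and Cd22 (0.407 ± 0.197).

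Jchain held most of what the group gained. Summed over the 8 genes, the level was 43.9, 37.8 and 53.4 CPM in Chrna4-labelled livers, against 10.03, 16.4 and 10.5 CPM in vehicle livers. Jchain made up 53.7%, 48.5% and 61.5% of the sum in Chrna4-labelled livers, against 30.0%, 32.7% and 12.3% in vehicle livers. The sum of the other 7 genes was 20.1 ± 0.564 CPM in Chrna4-labelled and 9.10 ± 2.02 CPM in vehicle livers (SD, n = 3 each), a ratio of 2.21.

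Reads of each gene per read of Cd79a compare genes within a library, without any scaling; these ratios were chosen after the values were seen. There were 19.1, 8.05 and 15.5 Jchain reads per Cd79a read in Chrna4-labelled livers, against 2.44, 5.88 and 1.37 in vehicle livers. For Mzb1 these ratios were 2.67, 0.953 and 1.25 in Chrna4-labelled livers and 0.562, 0.765 and 0.579 in vehicle livers. Both ratios lay apart between the groups (exact permutation test, 2-sided p = 0.1, the smallest that 3 against 3 allow; 0.35 adjusted over the 7 ratios to Cd79a). Those of the other 5 genes to Cd79a overlapped, with p from 0.4 to 1.0 by the same exact test. Cd79a, the divisor, had only 16 to 43 reads a library, and its own groups met. Per read of the T cell gene Cd3e, Mzb1 overlapped between the groups, with means of 0.794 in Chrna4-labelled and 0.835 in vehicle livers. Ratios to other B cell genes were not taken.

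The general leukocyte gene Ptprc was higher in the same libraries. Ptprc, which encodes the leukocyte surface protein CD45 and was picked as a yardstick after its values were seen, averaged 49.6 ± 4.63 CPM in Chrna4-labelled and 18.1 ± 6.97 CPM in vehicle livers (SD, n = 3 each; log2 fold change 1.48, adjusted p = 0.00557 by limma). Per read of Ptprc, Jchain stayed higher, at 0.443, 0.413 and 0.642 in Chrna4-labelled livers, against 0.295, 0.229 and 0.0628 in vehicle livers. Cd37 was lower per Ptprc read, at 0.122, 0.155 and 0.127 in Chrna4-labelled livers, against 0.326, 0.199 and 0.191 in vehicle livers. Cd79b was also lower on this measure, with means of 0.0383 in Chrna4-labelled and 0.0521 in vehicle livers, and the groups of these 3 genes lay apart (exact permutation test, 2-sided p = 0.1 each, 0.267 adjusted over 8 ratios). The groups of the other 5 overlapped; Cd22 was at 0.0952 ± 0.00246 in Chrna4-labelled and 0.0879 ± 0.0134 reads per Ptprc read in vehicle livers (SD, n = 3 each). The part of leukocyte content in the members' rises was not tested beyond these ratios.

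**Figure D3:**
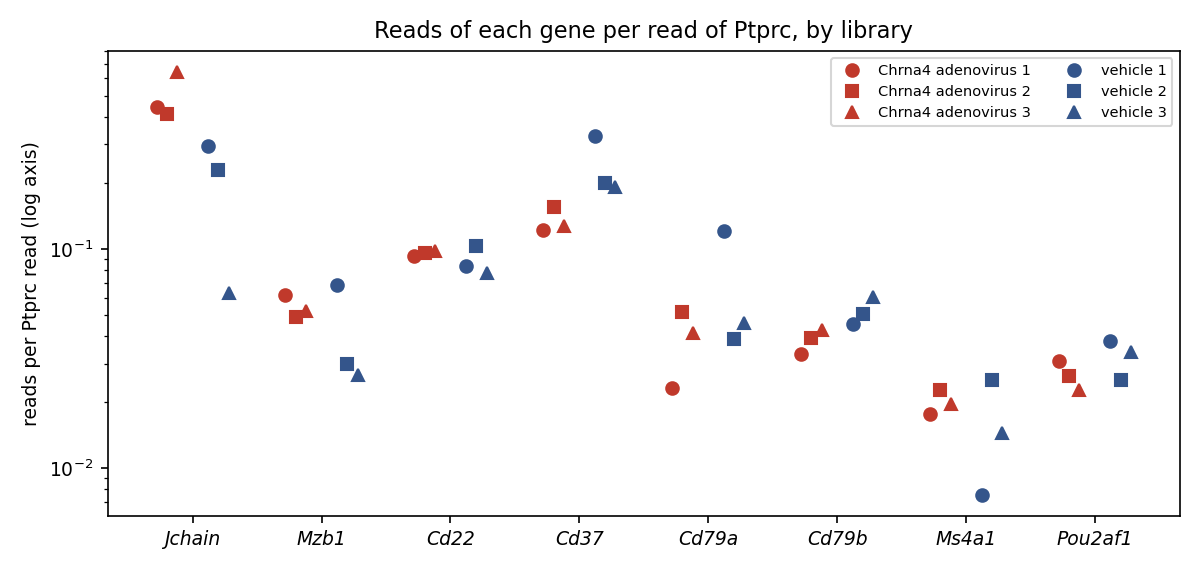
Reads of each gene per read of Ptprc (vertical axis, log scale) in Chrna4-labelled livers (red, left of each pair) and vehicle livers (blue, right), 1 point per library, with marker shapes for the replicate. The red points lie above all blue points for Jchain and below them for Cd37 and Cd79b, and the colours overlap for the other 5 genes.

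Vehicle replicate 1 was the lowest vehicle liver for 5 of the 8 genes (Cd22, Cd37, Cd79b, Ms4a1 and Pou2af1) and the highest for 1 of them, Cd79a. It was low in other leukocyte genes too: 13 T and NK cell markers summed to 46.2 to 57.1 CPM in Chrna4-labelled livers, against 7.95, 23.5 and 21.4 CPM in vehicle livers 1, 2 and 3. Without that library the same 4 genes of the 6 passed (limma), beside 1913 of 12099 tested genes called higher. Plasmacytoid dendritic cells also make Jchain. Of their 10 markers listed, 4 of 6 tested rose and 0 fell, beside 14.2% of tested genes called higher. With no minimum, 4 of the 10 rose, beside 13.4% of genes, and their median log2 fold change was 0.37. The groups of 6 of the 10 lay apart with Chrna4-labelled livers higher, as did 22.2% of all genes. The markers summed to 394.8 to 473.0 CPM in Chrna4-labelled and 260.7 to 318.6 CPM in vehicle livers. Most of that sum came from genes other than Siglech and Ccr9. The part of these cells in the Jchain difference was not tested. Their defining genes Siglech and Ccr9, named after their values were seen, overlapped between the groups. Siglech had 1.94, 1.91 and 1.32 CPM in Chrna4-labelled livers and 0.463, 1.98 and 1.24 CPM in vehicle livers, and Ccr9 had 0.646, 0.635 and 0.318 CPM in Chrna4-labelled and 0.540, 1.07 and 0.496 CPM in vehicle livers.

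Of 20 other B cell surface genes listed, 19 are in the table and 9 had a mean of at least 1 CPM. Of these 9, 5 rose and 0 fell, beside 14.2% of tested genes called higher and 10.3% called lower. With no minimum, 7 of 19 rose, beside 13.4% of genes. The median log2 fold change of the 19 was then 0.44, against 0.01 for all genes. Cd72, an inhibitory receptor, averaged 12.9 ± 1.49 CPM in Chrna4-labelled and 3.72 ± 1.12 CPM in vehicle livers (SD, n = 3 each). Cd180 and its partner family member Ly86, which modulate responses to bacterial products on B cells and macrophages, rose by 1.61 and 1.44 on the log2 scale (adjusted p = 0.00284 and 0.0204 by limma, and 0.00151 for Cd72). All 3 are also made by myeloid cells. Leaving out Chrna4-labelled replicate 1, 2 or 3 left 2 genes called higher in each case (limma). Over all 12099 tested genes these fits called 1159, 946 and 1081 higher, against 1721 with every library.

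Other genes more restricted to B cells were named after their values were seen. Pax5, the factor that keeps B cell identity, averaged 0.614 ± 0.220 CPM in Chrna4-labelled and 0.460 ± 0.207 CPM in vehicle livers. Cr2 and Fcer2a, both receptors of mature B cells, averaged 0.329 and 0.329 CPM in Chrna4-labelled livers, against 0.275 and 0.381 CPM in vehicle livers. The groups of Pax5, Cr2 and Fcer2a overlapped, and their differences did not pass with no minimum (adjusted p = 0.554, 0.740 and 0.820 by limma). Tnfrsf13b, a receptor for the survival factors BAFF and APRIL, had 1.23, 0.741 and 0.954 CPM in Chrna4-labelled livers, against 0.0772, 0.375 and 0.348 CPM in vehicle livers, and passed with no minimum (log2 fold change 0.64, adjusted p = 0.0165 by limma).

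Signalling genes downstream of the antigen receptor, most of them shared with myeloid or T cells, rose in 15 of 23 tested and fell in 0, with a median log2 fold change of 0.72. Of all tested genes, 14.2% were called higher and 10.3% lower. The fit with no minimum called 13 of 24 higher and 0 lower, with a median of 0.70, beside 13.4% of genes called higher. The kinase gene Syk, which binds the phosphorylated Cd79a and Cd79b, averaged 33.9 ± 5.95 CPM in Chrna4-labelled and 9.89 ± 2.42 CPM in vehicle livers (SD, n = 3 each; log2 fold change 1.69, adjusted p = 0.00118 by limma). Ptpn6, the phosphatase that Cd22 recruits, rose by 0.68 (adjusted p = 0.00310 by limma). Blk, a kinase largely of B cells and named after its value was seen, averaged 0.802 ± 0.0425 CPM in Chrna4-labelled and 0.736 ± 0.309 CPM in vehicle livers, and its groups overlapped. Without Chrna4-labelled replicate 2 or 3, 8 of the 23 rose (limma). The count over all 12099 tested genes also dropped, from 1721 to 946 and 1081.

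Of 16 transcription factor genes of the B lineage, 12 were tested, 5 rose and 0 fell, with a median log2 fold change of 0.77. Of all tested genes, 14.2% were called higher and 10.3% lower. Tested with no minimum, 6 of the 16 rose and 0 fell, with a median of 0.50, beside 13.4% of genes called higher. Spi1 and Irf8, which also direct myeloid cells, rose by 1.43 and 1.54 on the log2 scale (adjusted p = 0.00187 and 0.00823 by limma). Pou2f2, one of the octamer-binding factors that Pou2af1 joins, averaged 8.29 ± 1.44 CPM in Chrna4-labelled and 3.95 ± 0.890 CPM in vehicle livers (SD, n = 3 each) and rose by 0.91 (adjusted p = 0.0102 by limma). Leaving out Chrna4-labelled replicate 1, 2 or 3 gave 3 in each case, and there were 8 without vehicle replicate 1 (limma). Over all 12099 tested genes these counts were 1159, 946, 1081 and 1913, against 1721 with every library.

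The plasma cell list was mixed. Of 22 symbols listed, 20 are in the table (Fam46c is an older symbol of Tent5c, which is), 18 were tested, 5 rose and 1 fell, and the median log2 fold change was 0.06. One of the risen genes, Cd27, passed the minimum through the Chrna4-labelled group, with 2.39 CPM there and 0.791 CPM in vehicle livers. In the main test 14.2% of all tested genes were called higher and 10.3% lower. With no minimum, 6 of the 20 rose and 1 fell, with a median of 0.12, beside 13.4% of genes called higher. Slamf7, a surface receptor, averaged 6.37 ± 0.178 CPM in Chrna4-labelled and 1.28 ± 1.01 CPM in vehicle livers, and Prdm1, the master regulator of plasma cells, 3.55 ± 0.384 CPM in Chrna4-labelled and 1.03 ± 0.563 CPM in vehicle livers (SD, n = 3 each). Slamf7, Prdm1 and the ectoenzyme gene Cd38 rose by 1.81, 1.21 and 0.75 (adjusted p = 0.00643, 0.00791 and 0.0133 by limma). All 3 are also made by other leukocytes. Irf4, which acts with Prdm1 and was named after its value was seen, had 0.763, 2.01 and 1.48 CPM in Chrna4-labelled livers, against 0.386, 0.590 and 0.298 CPM in vehicle livers. Genes of the secretory pathway, which hepatocytes also use, went several ways and are named after their values were seen. Fkbp11, which encodes a protein of the endoplasmic reticulum, averaged 27.5 ± 3.17 CPM in Chrna4-labelled and 18.03 ± 2.56 CPM in vehicle livers (SD, n = 3 each) and rose by 0.58 (adjusted p = 0.0168 by limma). Hsp90b1, which encodes the chaperone that Mzb1 assists, had a log2 fold change of 0.0054 and Xbp1 one of -0.17, with adjusted p-values of 0.987 and 0.535 (limma, no minimum); with plain library totals these log2 fold changes were 0.34 and 0.17, also not called. The 1 gene that fell, Ssr4 (-0.41, adjusted p = 0.0250 by limma), belongs to that machinery, and with plain library totals its log2 fold change was -0.08 (adjusted p = 0.585 by limma). Without Chrna4-labelled replicate 1 or 3, 3 genes of the list rose (limma). The count over all 12099 tested genes was then 1159 and 1081, against 1721 with every library.

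**Figure D4:**
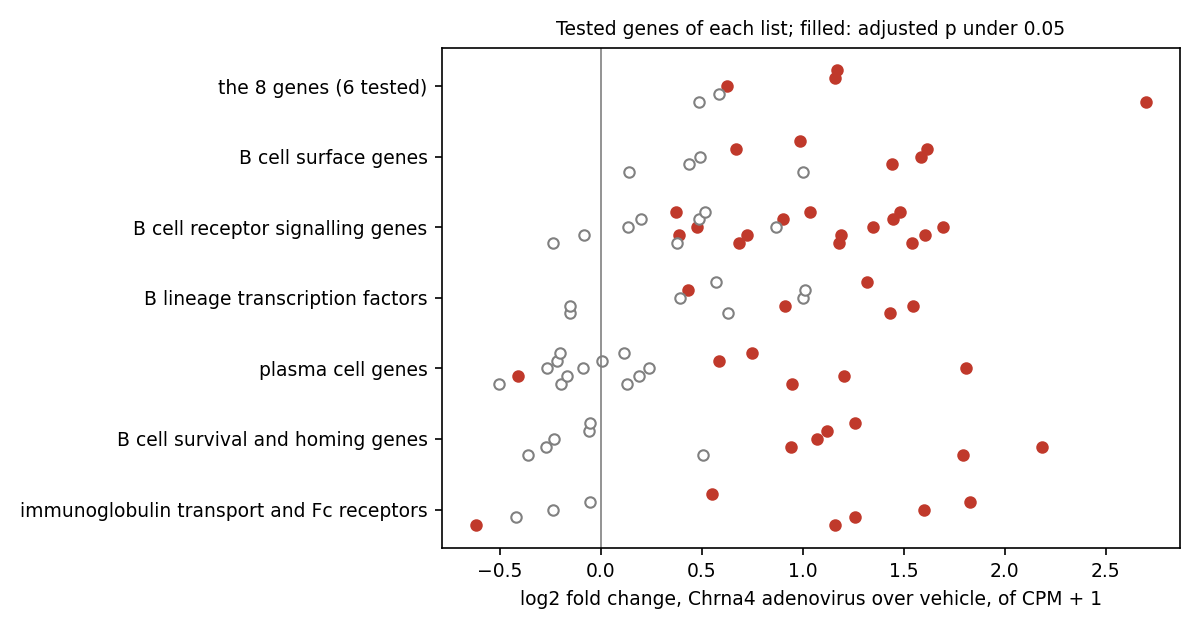
Log2 fold change of CPM + 1, Chrna4-labelled over vehicle (horizontal axis), of each tested gene in 7 lists (rows, the 8 genes on top); filled points have an adjusted p under 0.05 by limma. Filled points lie right of 0 in every list, and the 2 filled points left of 0 are Ssr4 (-0.41) and Pigr (-0.62).

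Among 25 listed genes of B cell survival and homing, 12 were tested, 6 rose and 0 fell, with a median log2 fold change of 0.72. Of all tested genes, 14.2% were called higher and 10.3% lower. When all 21 in the table were tested, 7 rose and 1 fell, with a median of 0.21, beside 13.4% of genes called higher. The adhesion genes Icam1, Itga4 and Itgb7 rose by 1.79, 1.12 and 0.94 on the log2 scale (adjusted p = 0.00231, 0.00446 and 0.00526 by limma), and Icam1 averaged 33.8 ± 1.68 CPM in Chrna4-labelled and 9.53 ± 3.64 CPM in vehicle livers. Another 2, both too low for the main test and named after their values were seen, went opposite ways with no minimum. Cxcl13, the chemokine that draws B cells into follicles, had 0.0587 CPM in 1 Chrna4-labelled liver and 0 in the other two, against 0.540, 1.77 and 0.397 CPM in vehicle livers (log2 fold change -0.83, adjusted p = 0.0333 by limma). Il21, a T cell cytokine that drives plasma cell formation, had 0.293, 0.371 and 0.477 CPM in Chrna4-labelled livers, against 0, 0.0536 and 0 CPM in vehicle livers (0.44, adjusted p = 0.0203). The survival factor genes Tnfsf13b (BAFF) and Tnfsf13 (APRIL) were also named after their values were seen. They had log2 fold changes of 0.21 and 0.30 that did not pass (adjusted p = 0.358 and 0.112 by limma, no minimum).

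Of 9 tested genes for receptors that handle antibodies, 5 rose and 1 fell, with a median log2 fold change of 0.55. Of all tested genes, 14.2% were called higher and 10.3% lower. All 10 listed were tested with no minimum, where 5 rose and 2 fell, with a median of 0.25, beside 13.4% of genes called higher. Fcer1g, the shared signalling chain of Fc receptors, and the IgG receptor genes Fcgr3 and Fcgr1, all expressed in macrophages, rose by 1.26, 1.16 and 1.60 (adjusted p = 0.00247, 0.00390 and 0.00446 by limma). The inhibitory IgG receptor gene Fcgr2b, named after its value was seen, averaged 53.6 ± 5.52 CPM in Chrna4-labelled and 63.6 ± 8.82 CPM in vehicle livers, with no overlap and no call (adjusted p = 0.214 by limma). Pigr, which carries J-chain-linked antibodies across hepatocytes and bile duct cells and was named after its value was seen, had 892.5, 1089.5 and 1068.5 CPM in Chrna4-labelled livers, against 1485.9, 1448.9 and 1752.4 CPM in vehicle livers. The groups lay apart in the direction opposite to Jchain, and Pigr fell by 0.62 on the log2 scale (adjusted p = 0.0112 by limma). With plain library totals its log2 fold change was -0.28 and was not called (adjusted p = 0.105 by limma).

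The genes with profiles nearest to Jchain over the 6 libraries were Adam8, Tubb2a, Gsta1, Emp1 and Ttc39a, with root mean square distances of 0.52 to 0.58 between centred log2(CPM + 1) values. Those nearest to Cd79a were Map1s, Mast1, Patz1, Rapgef3 and Mxra8, at 0.06 to 0.07. No member was among either 5. Ms4a1 and Pou2af1, below the minimum of 1 CPM, were not searched. Profiles were not scaled to equal spread, so the distance depends on the size of the change. With log2 fold changes of at most 1.17 against 2.70, no other member could be that near to Jchain.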

How the data were processed

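Liver RNA of 6 mice, 3 per group by the injection label, was analysed from 1 deposited table. The submitters' processing notes name TopHat2, HTSeq, mm10 and GRCm38 with no version. Annotation, strand and the authors' test are not stated there. Per the file headers, the authors deposited for each gene a fold change and abundance on the log2 scale, p-values and 1 signal value for each library. Dividing the deposited signal by its smallest step gave whole reads (100% within 0.01), so it is reads per 1000000 of a scaled total (CPM), and whole reads were recovered.

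The members, lists, the motif and settings were chosen with earlier results of these data known. Because the values are normalized, limma 3.58.1 (R 4.3.3; lmFit, eBayes with a trend) was run on log2(CPM + 1) of the 12099 genes averaging 1 CPM or more, with no covariates and Benjamini-Hochberg adjustment, at a threshold of 0.05. Alternatives were other minima and pseudocounts, plain totals, edgeR 4.0.16 (quasi-likelihood), DESeq2 1.42.0, a replicate block and leaving out each library. Each library carries its own liver number, and p-values measure the spread between these livers. On simulated data of this comparison (12095 genes), limma recovered 13 of 29 genes under 10 CPM changed 2-fold and 29 of 30 changed 4-fold, and called 15 of 11897 unchanged genes. The simulation changed only 98 genes 2-fold and 100 genes 4-fold, far fewer than were called in the livers. It also drew each gene separately, without differences that many genes of a liver share, so these rates need not hold here.

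Named in the text are the members, the 3 tested genes with the lowest p in each other list among those called, and the 5 nearest in profile to Jchain and Cd79a; the text says so where another gene was picked on its values. Coordinates and transcript lengths are from GENCODE M21 (GRCm38), which held 14480 of the 14492 gene numbers. Pairs of libraries of a group differed by 10.3 to 65.7 in chi-square per degree of freedom, so all 6 count as separate samples. The authors' other sheets were not used. Some listed genes are not reported here by name.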

Additional observations from a re-analysis of the deposited data

How the results depend on the processing

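All 90 values of the 8 genes under an alternative kept their direction, but for many of them no other outcome was possible. Another minimum or the replicate block leaves a log2 fold change as it was. Where the groups lie apart, leaving out 1 library cannot reverse it. A pseudocount of 0.25, edgeR and DESeq2 each called 4 of 6 tested members higher, beside 1654, 1704 and 1751 of 12099 genes. With a minimum of 0.5 CPM or none, 6 of 8 were called, beside 14.4% and 13.4% of genes. Plain totals called 6 of 6 tested, beside 37.5% of genes. The edgeR test without a minimum, chosen after seeing the data, called 5 of 8, beside 12.6% of genes. Without 1 library, 3 to 4 of the 6 tested members were called. With plain totals 4542 genes were higher and 340 lower, against 1721 and 1241; higher counts were 8 for B cell surface, 9 for transcription factor and 8 for plasma cell genes, and the members' summed difference was 39.5 CPM against 32.7. Without 1 library, limma called 946 to 1913 genes higher and 496 to 1418 lower; higher counts were 2 to 5 for B cell surface, 8 to 15 for signalling, 3 to 8 for transcription factor, 3 to 5 for plasma cell, 4 to 6 for survival and homing, and 4 to 5 for antibody transport genes, and the summed difference was 28.5 to 36.3 CPM. The cause was not tested. The list of antibody constant genes gave no value. The deposited column names number the livers 1 to 3 in both groups, but nothing says that a number pairs livers: deviations of same-numbered livers correlated at -0.065, -0.018 and 0.021 over the tested genes, and not every liver correlated best with its own number. With that number as a replicate block, added after seeing the data, limma called 1494 genes higher and 924 lower and the same count of 4 members. Counts of 1 to 25 reads limit Mzb1, Cd79a, Cd79b, Ms4a1 and Pou2af1 in vehicle livers, and 3 libraries a group limit every test.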

Other observations

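Marker lists of other cells show what else differed in these livers. Beside the counts below, 14.2% of the 12099 tested genes were called higher and 10.3% lower. With no minimum, 13.4% of 14492 genes were called higher. T and NK cell markers rose in 7 of 11 tested and fell in 0: the granule protease gene Gzma averaged 11.8 ± 3.86 CPM in Chrna4-labelled and 0.962 ± 0.566 CPM in vehicle livers (SD, n = 3 each), and Nkg7 and the T cell receptor partner Cd3e rose by 1.46 and 1.17 on the log2 scale (adjusted p = 0.00817 and 0.01003 by limma, 0.000866 for Gzma). Per read of Cd3e, Jchain overlapped between the groups, at 7.58, 5.41 and 8.48 in Chrna4-labelled and 6.50, 3.03 and 1.44 in vehicle livers (exact permutation test, 2-sided p = 0.2, 0.4 adjusted over 8 ratios). The overlap came from vehicle replicate 1 alone, whose 6.50 rests on 39 Jchain reads and far fewer Cd3e reads. Of 6 tested markers of plasmacytoid dendritic cells, 4 rose and 0 fell, and with no minimum 4 of 10 rose. The 3 with the lowest p were Ly6d (3.41), Runx2 (0.93) and Bst2 (0.47), of which Bst2 responds to interferon in many cells.

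Resident macrophage markers went both ways, with Cd5l rising by 1.45 and Cd163 and Timd4 with log2 fold changes of -3.42 and -2.78 (adjusted p = 0.0253, 0.000633 and 0.00147 by limma). Without vehicle replicate 1, 2 of these 8 markers rose and 6 fell (limma), beside 1913 of 12099 tested genes called higher and 1418 lower. Of 7 tested hepatocyte markers 0 rose and 2 fell, Ttr (-0.84) and Serpinc1 (-0.38). With plain library totals 1 fell, beside 340 of 12126 genes. Of 6 tested red cell and platelet markers 0 rose and 1 fell, the heme synthesis gene Alas2 (-0.77). The globin gene Hbb-bs, a measure of blood left in the tissue, was named after its values were seen. It had 65.4, 65.7 and 89.4 CPM in Chrna4-labelled livers, against 104.2, 63.2 and 86.6 CPM in vehicle livers, with overlapping groups.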
